A study of Saccharomyces cerevisiae with 8 samples.

Results

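The 10 genes described here encode enzymes of the pentose phosphate pathway in budding yeast. They were taken from the 7126 rows of the deposited expression table by standard gene name or systematic identifier, without using any expression value: ZWF1, SOL3, GND1 and GND2 of the oxidative branch, and RKI1, RPE1, TKL1, TKL2, TAL1 and NQM1 of the non-oxidative branch. All 10 had a mean of at least 1 FPKM and were tested. The row used for GND1 was the one with the identifier YHR183W. A further row, YHR182C-A, carried the same name with values of 0.69 FPKM or less and was not used.

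The oxidative branch turns glucose 6-phosphate into ribulose 5-phosphate and is a main source of NADPH, the reducing agent for biosynthesis and for the defence against oxidants. The non-oxidative branch interconverts sugar phosphates of different length, supplies ribose for nucleotides and erythrose for aromatic amino acids, and returns the rest to glycolysis. Yeast carries a major and a minor gene for several steps. Of the pairs compared here, GND1 and GND2 encode 6-phosphogluconate dehydrogenase, TKL1 and TKL2 encode transketolase, and TAL1 and NQM1 encode transaldolase, with TAL1 known as the major enzyme and NQM1 as its paralog.

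RNA was sequenced in 8 libraries of Saccharomyces cerevisiae in the BY4741 background, 2 in each of 4 groups: strain S at 12 h, strain U at 12 h, strain S at 6 h and strain U at 6 h. GCR1 encodes an activator best known from the genes of glycolysis. Its forms Gcr1(S) and Gcr1(U) are tied by the study's design text to the processing of the GCR1 intron. Strain S (JHY9200) stands for Gcr1(S), with a GCR1 deletion labelled 4-742, and strain U (JHY9100) for Gcr1(U), with a deletion labelled 1-574. The labels leave unsaid from where the positions are counted. Both strains thus carried an edited GCR1, and BY4741 with an unedited GCR1 was not analysed here. All cultures were grown without treatment in 10 mL of YPD with 2% glucose at 30 °C. The labels place the 6 h samples in exponential phase and the 12 h samples after the diauxic shift, the point at which the cells run out of glucose and begin to consume the ethanol they made. The study's stated comparison was of the Gcr1 forms at these times. Since no label states that replicates were grown separately, p-values measure only the spread between these samples, which may be technical.

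The values were FPKM, fragments scaled to transcript length and to the size of the library, as the authors deposited them. Levels of different genes can therefore be compared. Library sums lay between 1504396 and 1548312 FPKM. The number of reads is unknown, so no counting interval is given for low values. GCR1 itself had 104 and 89.0 FPKM in S at 12 h, 30.2 and 32.9 FPKM in U at 12 h, 143 and 58.9 FPKM in S at 6 h, and 60.9 and 40.2 FPKM in U at 6 h. The strains carry different GCR1 deletions, and whether these change the FPKM of GCR1 apart from its amount of RNA was not tested. The GCR1 difference of S minus U was 1.58 at 12 h and 0.88 at 6 h on the log2 scale. Its 95% interval was 0.58 to 2.58 at 12 h and -0.12 to 1.88 at 6 h. The unadjusted limma p was 0.00804 at 12 h and 0.076 at 6 h, and the adjusted p was 1 for each. All 8 diauxic shift markers (among them PCK1 and FBP1 of gluconeogenesis) were called higher at 12 h than at 6 h in each strain, where called means a limma adjusted p under 0.05 over all 6339 genes tested. Of 15 general stress transcripts, 7 were called higher at 12 h in S and 6 in U. Over all genes tested, 33.2% were called higher at 12 h in S and 33.5% in U. Replicates 1 and 2 differed within groups. Of the same 15, 15 in S and 14 in U were higher in replicate 1 at 6 h, with a median difference of 3.31 and 2.12 on the log2 scale. Of all 6339 genes tested, 3884 in S and 3333 in U were, with a median difference of 0.14 and 0.02. At 12 h, 14 of the 15 stress transcripts were higher in replicate 1 in each strain, by a median of 0.43 in S and 0.67 in U. Of the 8 diauxic shift markers 1 was, and of all genes tested 2980 in S and 2748 in U. Of the mating type markers checked against the a type of BY4741, the a-cell receptor gene STE2 had 208 FPKM or more and the alpha-cell receptor gene STE3 8.22 FPKM or less in every library, while the a marker MFA1 was listed at 0 in 1 library and the alpha marker SAG1 had 26.6 to 64.5 FPKM.

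The 6 genes of the 3 pairs lie apart from each other in the genome, and their upstream sequences are shown because the members of a pair moved in opposite directions. In the RefSeq R64 annotation GND2 is at chrVII:1004624-1006102 (+ strand), GND1 at chrVIII:470960-472429 (+), TKL2 at chrII:474392-476437 (-), TKL1 at chrXVI:692796-694838 (-), NQM1 at chrVII:580435-581436 (-) and TAL1 at chrXII:836350-837357 (-). The other 4 are ZWF1 at chrXIV:196426-197943 (-), SOL3 at chrVIII:423724-424473 (+), RKI1 at chrXV:503552-504328 (-) and RPE1 at chrX:190374-191090 (-). None of the 10 overlaps another annotated gene. The lines give, in R64, the 200 bases that begin 300 bases before each start codon, in the direction of the gene. Capitals mark matches to the stress response element (STRE), AGGGG or its reverse complement CCCCT, which the stress factors Msn2 and Msn4 are known to bind.
GND2, chrVII:1004324-1004523, + strand: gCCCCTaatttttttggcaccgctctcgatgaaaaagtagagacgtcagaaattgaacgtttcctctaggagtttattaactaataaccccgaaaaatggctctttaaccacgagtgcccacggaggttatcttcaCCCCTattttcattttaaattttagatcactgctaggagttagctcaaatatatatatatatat
GND1, chrVIII:470660-470859, + strand: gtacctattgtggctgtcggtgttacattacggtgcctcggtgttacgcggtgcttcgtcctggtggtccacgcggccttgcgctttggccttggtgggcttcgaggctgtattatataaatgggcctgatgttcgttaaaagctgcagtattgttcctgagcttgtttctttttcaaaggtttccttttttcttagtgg
TKL2, chrII:476538-476737, - strand: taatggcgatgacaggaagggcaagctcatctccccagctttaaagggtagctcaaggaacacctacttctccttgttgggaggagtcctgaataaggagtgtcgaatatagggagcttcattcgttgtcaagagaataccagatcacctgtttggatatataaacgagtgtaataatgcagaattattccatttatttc
TKL1, chrXVI:694939-695138, - strand: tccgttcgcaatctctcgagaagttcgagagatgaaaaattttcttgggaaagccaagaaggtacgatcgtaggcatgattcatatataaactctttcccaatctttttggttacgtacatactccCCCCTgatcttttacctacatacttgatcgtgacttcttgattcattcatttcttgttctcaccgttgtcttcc
NQM1, chrVII:581537-581736, - strand: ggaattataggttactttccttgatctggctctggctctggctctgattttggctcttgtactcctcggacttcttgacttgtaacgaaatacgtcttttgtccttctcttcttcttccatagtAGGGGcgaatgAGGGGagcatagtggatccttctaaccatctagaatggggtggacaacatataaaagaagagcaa
TAL1, chrXII:837458-837657, - strand: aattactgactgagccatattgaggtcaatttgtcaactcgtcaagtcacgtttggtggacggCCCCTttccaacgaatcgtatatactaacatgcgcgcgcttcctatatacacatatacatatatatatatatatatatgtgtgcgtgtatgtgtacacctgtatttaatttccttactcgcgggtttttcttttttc

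The whole 300 bases before each start codon were searched on both strands. At least 1 STRE match lay before 7 of the 10 genes, against 22.2% of 5987 yeast genes with a window of this length (1328 genes). At least 2 matches lay before ZWF1 (5), GND2 (2) and NQM1 (2), against 3.44% of all genes. SOL3, TKL1, TKL2 and TAL1 had 1 match each, and GND1, RKI1 and RPE1 had none. Within the pairs, GND2 had 2 matches and GND1 none, NQM1 had 2 and TAL1 1, and TKL2 and TKL1 had 1 each. The matches of ZWF1, SOL3 and TKL2 are not in the windows above and are given in the following stretches of 30 bases, with the matches in capitals as before.
ZWF1, chrXIV:198162-198191, - strand: caaggtgtggtggCCCCTtttctaagggtg
ZWF1, chrXIV:198026-198055, - strand: CCCCTctctcccttttctccactcaCCCCT
ZWF1, chrXIV:197996-198025, - strand: ccttctcCCCCTtcCCCCTctccaattggc
SOL3, chrVIII:423693-423722, + strand: atcaattgctttaCCCCTggtccgcgacca
TKL2, chrII:476498-476527, - strand: tcaattggcttgtCCCCTcttactgtagtc

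The core of the Gcr1 binding site, CTTCC or its reverse complement GGAAG, lay at least once before ZWF1 (2 matches), TKL1 (2), TAL1 (2), TKL2 (1) and NQM1 (1), and before 45.5% of all genes. Before ZWF1 the core that starts 72 bases upstream overlaps STRE matches that start 75 and 68 bases upstream. The post-diauxic shift element AGGGAT, on either strand, lay before none of the 10 genes and before 9.24% of all genes. These are matches of letters in a window and no record of binding.

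**Figure D1:**
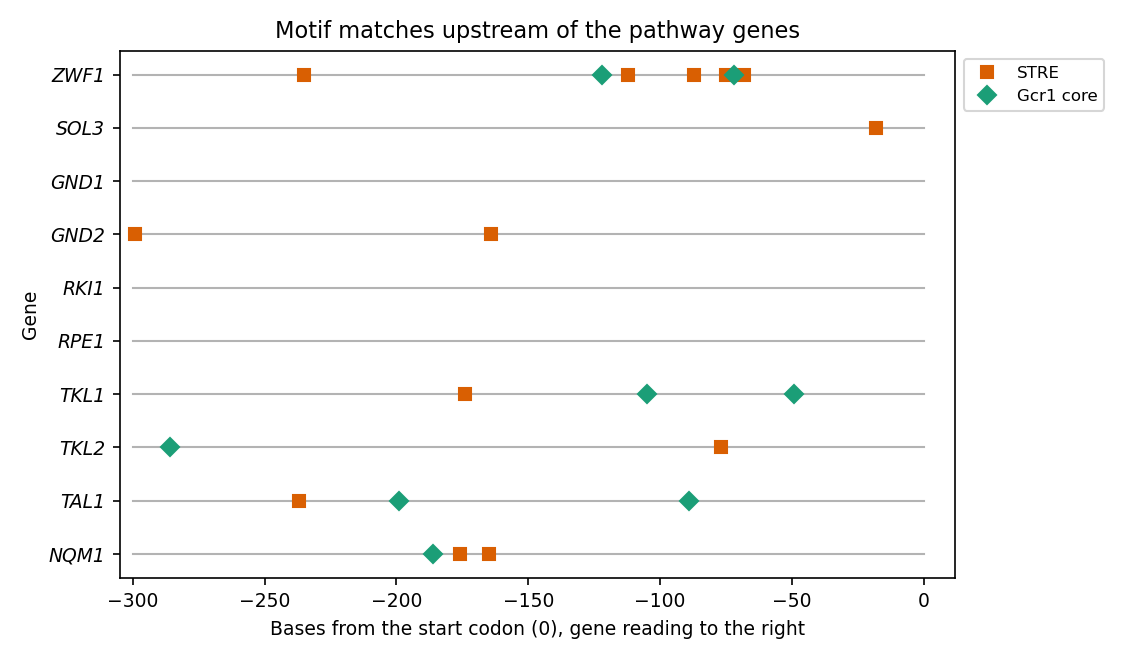
Matches to the STRE and to the Gcr1 core in the 300 bases before the start codon of each of the 10 genes, by distance from the start codon in bases, each mark being 1 match on either strand. ZWF1 has 5 STRE matches, GND2 and NQM1 have 2 each, and GND1, RKI1 and RPE1 have none of either motif.

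The genes of a pair share sequence, which bears on how reads were assigned. The coding sequences of GND2 and GND1 were identical at 1163 of 1470 aligned bases (79.1%), those of TKL2 and TKL1 at 1412 of 2043 (69.1%) and those of NQM1 and TAL1 at 681 of 1001 (68.0%). The longest runs shared without a mismatch were 20 bases in the GND pair and 17 bases in each of the other pairs, and are printed here in the direction of the genes.
GND2/GND1: atgggtcaaaatttgatctt
TKL2/TKL1: aattgggtaacttgatt
NQM1/TAL1: ggtatcagaaaattctc
None of the pairs shared a stretch of 100 bases, the length read per end, or of 25 bases.

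At 12 h, after the diauxic shift, the minor gene of each pair was far above its level at 6 h and the major gene was below its own, in both strains. The minor gene of each pair (GND2, TKL2 or NQM1) made up 40.2% to 67.2% of the pair's summed FPKM in the 12 h libraries. In the 6 h libraries it made up 0.434% to 1.26%. Among all 10 genes, 8 were called between the times in S and 8 in U, 4 of them higher and 4 lower at 12 h in each strain. Over all 6339 genes tested, 56.1% were called in S (33.2% higher, 22.9% lower) and 55.3% in U (33.5% higher, 21.7% lower), so that a call at this comparison is common in these data. The median log2 change of the 10 genes was 0.46 in S and 0.59 in U, against 0.23 and 0.26 for all genes tested. The same 4 genes (ZWF1, GND2, TKL2 and NQM1) were called higher and the same 4 (SOL3, GND1, TKL1 and TAL1) lower in both strains, while RKI1 and RPE1 were not called. In whole cultures, a smaller number of cells that express a gene and less RNA per cell cannot be told apart.

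**Figure D2:**
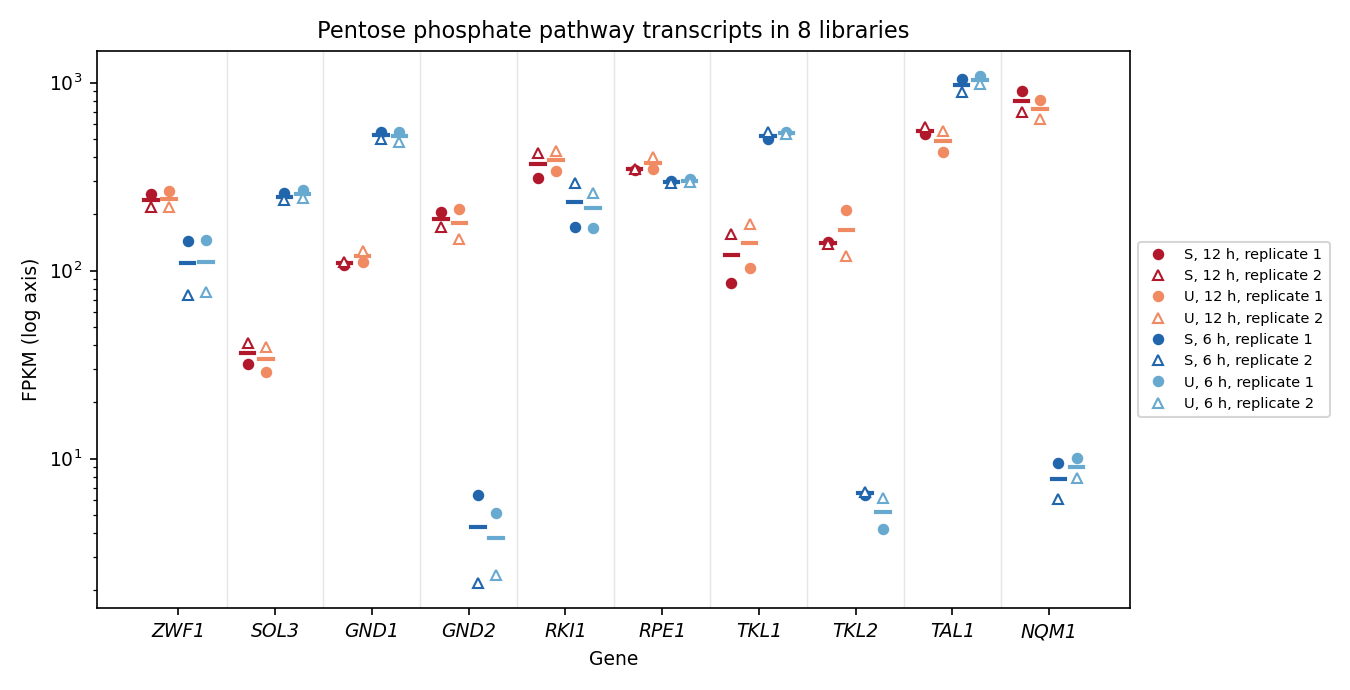
FPKM of the 10 genes in each of the 8 libraries on a log axis, with the genes side by side and, within a gene, the groups in the order S 12 h, U 12 h, S 6 h and U 6 h. Filled circles are replicate 1, open triangles replicate 2 and bars the mean of the group. GND2, TKL2 and NQM1 lie at 10.1 FPKM or less at 6 h and at 119 FPKM or more at 12 h, and the 2 strains lie close together at each time.

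In the oxidative branch, the 6-phosphogluconate dehydrogenase genes moved in opposite directions. GND2 had 204 and 170 FPKM in S at 12 h, 212 and 146 FPKM in U at 12 h, 6.42 and 2.19 FPKM in S at 6 h, and 5.16 and 2.41 FPKM in U at 6 h. The 12 h libraries lay far above all 6 h libraries. The limma log2 fold change of 12 h over 6 h was 5.27 ± 0.47 (SE) in S, adjusted p = 0.000368, and 5.27 ± 0.47 in U, adjusted p = 0.00036. On the log2(FPKM + 1) scale used for the fits, changes of genes with low values are understated. Within each 6 h group GND2 was higher in replicate 1, by 2.93 times in S and 2.14 times in U, as the general stress transcripts were. Of the 10 pathway genes, 7 in S and 8 in U were higher in replicate 1 at 6 h, among them SOL3, GND1 and TAL1. Without both 6 h libraries of replicate 1 the change of GND2 was 5.88 in S and 5.70 in U. Without the 6 h library of replicate 2 of S it was 4.66 in S, and without that of U it was 4.85 in U, and each remained called by limma.

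GND1, the major 6-phosphogluconate dehydrogenase gene, had 108 and 112 FPKM in S at 12 h, 112 and 128 FPKM in U at 12 h, 548 and 503 FPKM in S at 6 h, and 549 and 486 FPKM in U at 6 h. All 12 h libraries lay below all 6 h libraries, and replicates were close. GND1 fell to 0.210 of its 6 h level in S at 12 h (limma log2 change -2.25 ± 0.15 SE, adjusted p = 0.000162) and to 0.233 in U (adjusted p = 0.000196). The rise of GND2 did not make up the fall of GND1 in summed FPKM. FPKM is relative to the whole library, so amounts of transcript per cell were not measured. The pair's sum was 312 and 282 FPKM in S at 12 h, 324 and 274 FPKM in U at 12 h, 555 and 505 FPKM in S at 6 h, and 554 and 488 FPKM in U at 6 h. The ratio of mean sums, 12 h over 6 h, was 0.561 in S and 0.574 in U, and 0.483 in each strain with median-of-ratios scaling.

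The step before, the hydrolysis of 6-phosphogluconolactone, is catalysed by Sol3 and also by Sol4. SOL4 is not among the 10 genes and is described further below, so the values here are those of SOL3 alone. SOL3 had 32.0 and 41.0 FPKM in S at 12 h, 28.7 and 39.3 FPKM in U at 12 h, 257 and 237 FPKM in S at 6 h, and 267 and 242 FPKM in U at 6 h. This was the lowest level of the 10 genes at 12 h in each library. SOL3 fell to 0.150 of its 6 h level in S at 12 h (limma log2 change -2.73 ± 0.20 SE, adjusted p = 0.000218) and to 0.135 in U (-2.88 ± 0.20, adjusted p = 0.00019), the largest fall among the 10 genes.

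ZWF1 encodes glucose-6-phosphate dehydrogenase, which catalyses the first step of the oxidative branch. It had 254 and 218 FPKM in S at 12 h, 265 and 218 FPKM in U at 12 h, 144 and 74.0 FPKM in S at 6 h, and 146 and 77.0 FPKM in U at 6 h. The 12 h libraries lay above the 6 h libraries, but the 6 h replicates differed by 1.95 times in S and 1.90 times in U, with replicate 1 the higher one, as for the general stress transcripts. The limma log2 fold change of 12 h over 6 h was 1.18 ± 0.40 (SE) in S, adjusted p = 0.0454, and 1.17 ± 0.40 in U, adjusted p = 0.0471. Both calls lay close to the threshold and were lost with median-of-ratios scaling (0.97, adjusted p = 0.0685 in S; 0.92, adjusted p = 0.079 in U). Leaving out 1 of 5 libraries also ended the limma call in S: 12 h replicate 1 of S (adjusted p = 0.172) or U (0.0757), 12 h replicate 2 of S (0.115) or U (0.0755), or 6 h replicate 2 of S (0.199). In U, the call was lost without 12 h replicate 1 of S (limma adjusted p = 0.0779) or U (0.185), 12 h replicate 2 of S (0.078) or U (0.109), or 6 h replicate 2 of U (0.221). Across the libraries left out, the change stayed between 0.70 and 1.66 in S and between 0.71 and 1.63 in U. Without both 6 h libraries of replicate 1 it was 1.66 in S and 1.63 in U.

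Summed over ZWF1, SOL3, GND1 and GND2, the oxidative branch had 598 and 541 FPKM in S at 12 h, 617 and 531 FPKM in U at 12 h, 956 and 815 FPKM in S at 6 h, and 967 and 807 FPKM in U at 6 h. The sum was lower at 12 h than at 6 h in both strains, with no overlap between the times. It leaves out SOL4, which also encodes a 6-phosphogluconolactonase. SOL4 had 429 and 343 FPKM in S and 467 and 309 FPKM in U at 12 h. At 6 h it had 148 and 2.96 FPKM in S and 150 and 11.9 FPKM in U. The fall is therefore stated only for the genes summed, and no direction is given for the branch with SOL4.

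In the non-oxidative branch, transketolase moves a group of carbon atoms between sugar phosphates. TKL2, the minor gene, had 141 and 138 FPKM in S at 12 h, 211 and 119 FPKM in U at 12 h, 6.40 and 6.65 FPKM in S at 6 h, and 4.24 and 6.20 FPKM in U at 6 h. Every 12 h library lay far above every 6 h library. The U replicates at 12 h stood apart by 1.76 times and those of S hardly at all. The limma log2 fold change of 12 h over 6 h was 4.22 ± 0.29 (SE) in S, adjusted p = 0.000173, and 4.70 ± 0.29 in U, adjusted p = 0.00013.

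TKL1 had 85.8 and 158 FPKM in S at 12 h, 103 and 177 FPKM in U at 12 h, 503 and 543 FPKM in S at 6 h, and 544 and 534 FPKM in U at 6 h. The 12 h libraries were all low, and at that time replicate 2 was the higher one, by 1.84 times in S and 1.73 times in U. The diauxic shift markers also differed between the 12 h replicates, 7 of 8 being higher in replicate 2, and whether this bears on TKL1 was not tested. TKL1 fell to 0.224 of its 6 h level in S at 12 h (limma log2 change -2.16 ± 0.35 SE, adjusted p = 0.00324) and to 0.252 in U (-1.99 ± 0.35, adjusted p = 0.00442). The summed FPKM of TKL2 and TKL1 was 227 and 295 in S at 12 h, 313 and 297 in U at 12 h, 509 and 550 in S at 6 h, and 549 and 540 in U at 6 h. The ratio of mean sums, 12 h over 6 h, was 0.493 in S and 0.561 in U, and 0.423 and 0.472 with median-of-ratios scaling.

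Transaldolase carries out the remaining carbon transfers. NQM1, the paralog of TAL1, had 902 and 701 FPKM in S at 12 h, 806 and 639 FPKM in U at 12 h, 9.48 and 6.11 FPKM in S at 6 h, and 10.1 and 7.88 FPKM in U at 6 h. It was among the lowest of the 10 genes at 6 h and the highest at 12 h in every library. Its limma log2 fold change of 12 h over 6 h was the largest of the 10 genes, 6.53 ± 0.26 (SE) in S, adjusted p = 4.41e-05, and 6.18 ± 0.26 in U, adjusted p = 3.92e-05. As a ratio on the log2(FPKM + 1) scale this was 92.2 times in S and 72.4 times in U.

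TAL1 was the highest of the 10 genes at 6 h. It had 532 and 579 FPKM in S at 12 h, 427 and 551 FPKM in U at 12 h, 1048 and 895 FPKM in S at 6 h, and 1084 and 988 FPKM in U at 6 h. The 12 h libraries lay below the 6 h libraries, by less than for GND1 and TKL1. TAL1 fell to 0.574 of its 6 h level in S at 12 h (limma log2 change -0.80 ± 0.19 SE, adjusted p = 0.012) and to 0.469 in U (-1.09 ± 0.19, adjusted p = 0.0039). The call in S was lost without the 12 h library of replicate 1 of S (-0.74, limma adjusted p = 0.0731). The sum of the pair was 1434 and 1280 FPKM in S at 12 h, 1233 and 1190 FPKM in U at 12 h, 1057 and 902 FPKM in S at 6 h, and 1094 and 996 FPKM in U at 6 h, a ratio of mean sums of 1.39 in S and 1.16 in U. With median-of-ratios scaling the ratio was 1.20 in S and 0.975 in U, where the libraries of the 2 times then overlapped.

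RKI1 and RPE1 each encode the only enzyme listed here for their step, the isomerase that makes ribose 5-phosphate and the epimerase that makes xylulose 5-phosphate. RKI1 had 311 and 424 FPKM in S at 12 h, 338 and 435 FPKM in U at 12 h, 171 and 292 FPKM in S at 6 h, and 168 and 260 FPKM in U at 6 h. In each group replicate 2 was the higher one, by 1.29 to 1.70 times. The limma log2 difference of 12 h minus 6 h was 0.70 ± 0.35 (SE) in S, adjusted p = 0.13, and 0.87 ± 0.35 in U, adjusted p = 0.0718. RKI1 was not called in either strain, but in U it passed when 6 h replicate 1 of S (limma adjusted p = 0.0449) or 6 h replicate 2 of S (0.0447) was left out.

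RPE1 had the smallest difference between the times among the 10 genes. It had 345 and 348 FPKM in S at 12 h, 347 and 400 FPKM in U at 12 h, 300 and 292 FPKM in S at 6 h, and 306 and 296 FPKM in U at 6 h. The log2 difference of 12 h minus 6 h was 0.23 ± 0.14 (SE) in S, with a 95% interval of -0.11 to 0.57 and a limma adjusted p of 0.213. In U it was 0.31 ± 0.14, with an interval of -0.03 to 0.65 and a limma adjusted p of 0.108. With median-of-ratios scaling, which moved the median change of all genes to 0.02 in each strain, the difference of RPE1 was 0.01 in S and 0.06 in U. No direction of the 10 genes between the times was turned by this scaling or by quantile normalization.

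The non-oxidative branch summed to 2317 and 2348 FPKM in S at 12 h, 2232 and 2322 FPKM in U at 12 h, 2037 and 2035 FPKM in S at 6 h, and 2117 and 2092 FPKM in U at 6 h. The ratio of mean sums, 12 h over 6 h, was 1.15 in S and 1.08 in U, but 0.984 in S and 0.909 in U once the libraries were scaled by median of ratios (an alternative added after seeing the data), so no direction is given for this branch. For the oxidative branch genes summed here, which leave out SOL4, the ratio was 0.643 in S and 0.647 in U, and 0.555 and 0.545 with that scaling. The sum over all 10 genes in deposited FPKM was 2915 and 2889 FPKM in S at 12 h, 2849 and 2853 FPKM in U at 12 h, 2994 and 2851 FPKM in S at 6 h, and 3084 and 2899 FPKM in U at 6 h, a ratio of mean sums of 0.993 in S and 0.953 in U. With median-of-ratios scaling the ratio was 0.855 in S and 0.801 in U, and with quantile normalization 0.958 and 0.919.

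**Figure D3:**
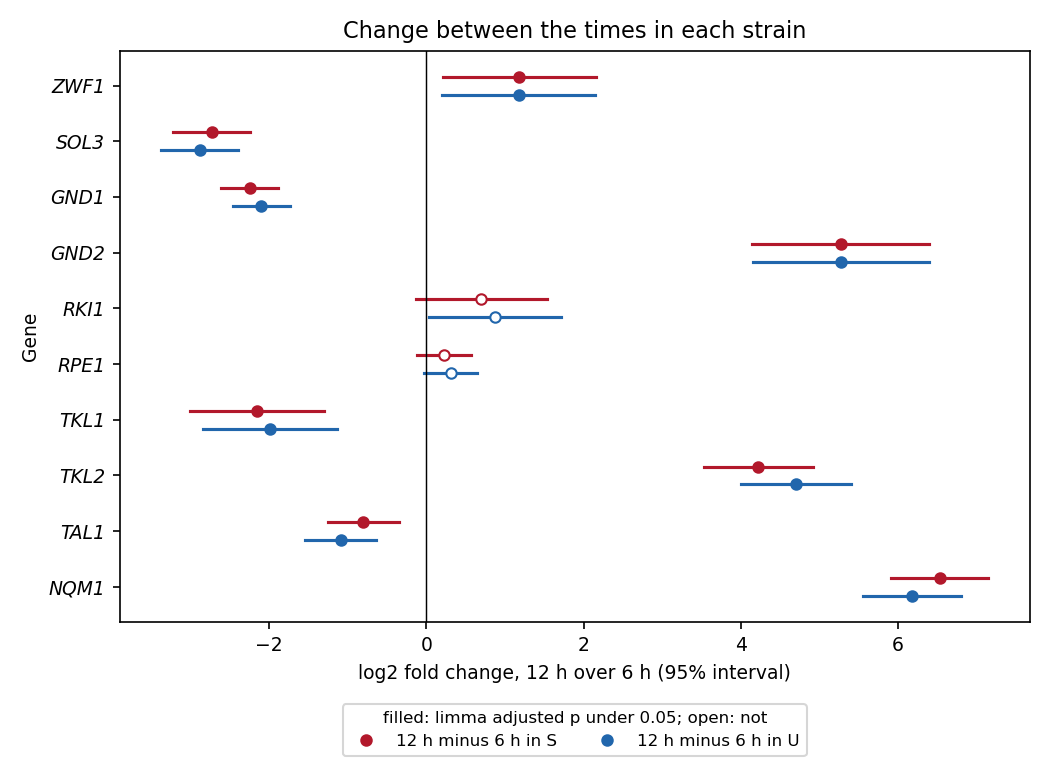
Log2 fold change of 12 h over 6 h for the 10 genes in each strain from limma, with 95% intervals as lines, filled points for genes called and open points for genes not called. GND2, TKL2 and NQM1 lie between 4.22 and 6.53, GND1, TKL1 and SOL3 between -2.88 and -1.99, and the values of S and U lie side by side for every gene.

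The switch within each pair was measured as the log2 ratio of the minor to the major gene in each library, log2(minor FPKM + 1) minus log2(major FPKM + 1). GND2 over GND1 averaged 0.66 ± 0.34 (SD, n = 4) in the 12 h libraries and -6.79 ± 0.53 (SD, n = 4) in the 6 h libraries, a difference of 7.45. TKL2 over TKL1 averaged 0.25 ± 0.75 at 12 h and -6.29 ± 0.28 at 6 h, a difference of 6.54. NQM1 over TAL1 averaged 0.54 ± 0.35 at 12 h and -6.76 ± 0.17 at 6 h, a difference of 7.30. In each pair all 4 ratios at 12 h lay above all 4 at 6 h, and the exact two-sided permutation test over the 8 libraries gave p = 0.0286, also 0.0286 adjusted over the 3 pairs, the smallest value that 70 splits allow.

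At 12 h the genes of a pair were at similar levels. GND2 made up 65.5% and 60.4% of its pair in S at 12 h, 65.6% and 53.4% in U at 12 h, 1.16% and 0.434% in S at 6 h, and 0.932% and 0.494% in U at 6 h. NQM1 made up 62.9% and 54.8% in S at 12 h, 65.4% and 53.7% in U at 12 h, 0.897% and 0.678% in S at 6 h, and 0.922% and 0.791% in U at 6 h. GND2 and NQM1 were thus above their partners in all 4 libraries at 12 h. TKL2 made up 62.2% and 46.7% in S at 12 h, 67.2% and 40.2% in U at 12 h, 1.26% and 1.21% in S at 6 h, and 0.773% and 1.15% in U at 6 h. TKL2 was above TKL1 in replicate 1 of both strains at 12 h and below it in replicate 2. For all 3 pairs the share of the minor gene at 12 h was higher in replicate 1 than in replicate 2 of each strain.

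**Figure D4:**
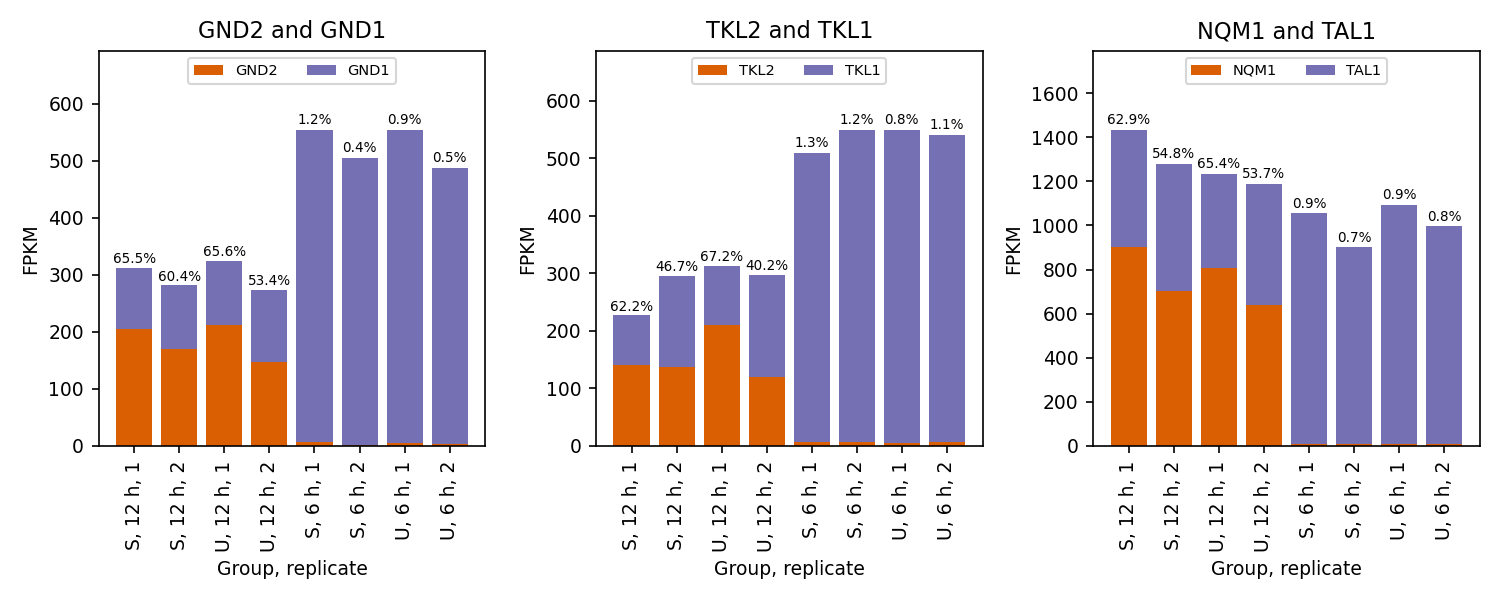
Stacked bars of the FPKM of both genes of each pair in each library, 1 panel per pair, with the minor gene (GND2, TKL2 or NQM1) at the bottom, the major gene above it and the minor gene's percent of the sum printed over the bar. The minor gene makes up 40.2% to 67.2% of the bar at 12 h and 1.26% or less at 6 h, and in deposited FPKM the bars of the GND and TKL pairs are shorter at 12 h and those of NQM1 and TAL1 taller, which with median-of-ratios scaling did not hold for NQM1 and TAL1 in U (ratio 0.975).

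The difference of the log2 ratio between 12 h and 6 h within S was 7.52 for the GND pair, 6.38 for the TKL pair and 7.33 for NQM1 and TAL1. Within U it was 7.38, 6.69 and 7.27 in the same order. With 2 libraries against 2 the smallest exact permutation p is 0.333, so these values carry no call.

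The strains were then compared at each time, the question the study's design puts to the Gcr1 forms. None of the 10 genes differed between S and U by the test, at 12 h, at 6 h or in the change between the times, and none reached an unadjusted limma p of 0.05 in any of these comparisons. Calls were rare in these comparisons, 0.126% of all genes tested at 12 h (8 genes), 0.0789% at 6 h (5 genes) and 0.0789% for the difference of the changes (5 genes). In the same order, 61, 56 and 51 genes had an unadjusted limma p under 0.05, fewer than that threshold gives by chance alone. The p-values of this fit may thus be too large. With the replicate number as a block within each time, added after seeing the data, these counts were 256, 247 and 221. Among the 10 genes, 1 was then under 0.05, for the difference of the changes. S minus U lay between -0.21 (TKL1) and 0.19 (TAL1) on the log2 scale at 12 h. At 6 h it lay between -0.20 (NQM1) and 0.29 (TKL2). These limits moved when 1 library was left out. At 12 h they were -0.65 and 0.33 without replicate 2 of S, -0.60 and 0.35 without replicate 1 of U, and -0.59 and 0.38 without replicate 2 of U. At 6 h they were -0.52 and 0.48 without replicate 1 of S, -0.29 and 0.70 without replicate 2 of S, -0.22 and 0.51 without replicate 1 of U, and -0.49 and 0.52 without replicate 2 of U.

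The precision differed between genes. For RPE1 the 95% interval of S minus U was -0.45 to 0.23 at 12 h and -0.37 to 0.31 at 6 h, and for GND1 it was -0.48 to 0.24 at 12 h and -0.34 to 0.39 at 6 h. For GND2 it was -1.04 to 1.21 at each time, the widest of the 10 genes, so that a change of 2 times in either direction lay within it. NQM1 had an interval of -0.47 to 0.77 at 12 h and -0.82 to 0.42 at 6 h. The change between the times differed most between the strains for TKL2 (-0.48, interval -1.46 to 0.51) and NQM1 (0.35, interval -0.53 to 1.23). S minus U of the pair's log2 ratio was 0.20 for the GND pair, 0.03 for the TKL pair and -0.05 for NQM1 and TAL1 at 12 h, and 0.06, 0.34 and -0.11 at 6 h in the same order.

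**Figure D5:**
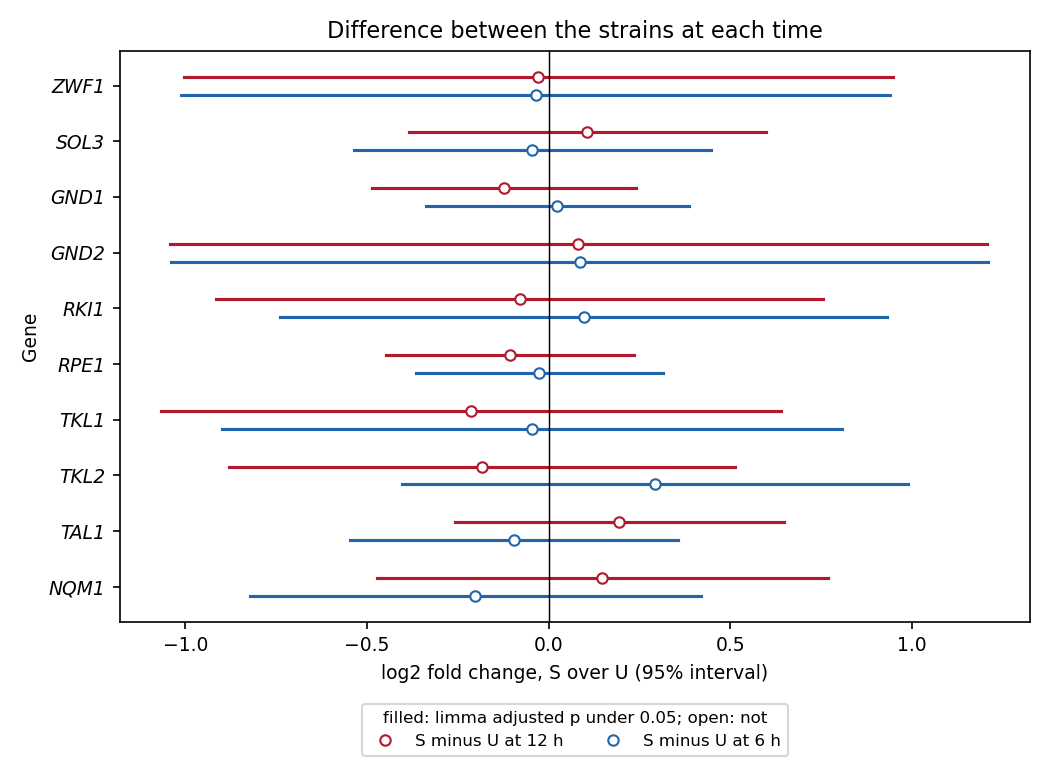
Log2 difference of S minus U for the 10 genes at 12 h and at 6 h from limma, with 95% intervals as lines. Every interval crosses 0, the points lie between -0.21 and 0.29, and the intervals are widest for GND2 and narrow for RPE1 and GND1.

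The genes around the pathway moved in both directions between the times. Of 13 genes that feed it, draw on its products or are paralogs of its members, 3 were called higher and 5 lower at 12 h in each strain, against 33.2% higher and 22.9% lower over all genes tested in S and 33.5% and 21.7% in U. The median log2 change was -0.45 in S and -0.51 in U. SHB17, the sedoheptulose bisphosphatase that leads glycolytic intermediates towards ribose, fell in both strains (log2 change -2.42 in S, limma adjusted p = 0.000193, and -2.50 in U, adjusted p = 0.000181). PRS1, a phosphoribosyl pyrophosphate synthetase subunit, fell (-1.84 in S and -1.75 in U), and PRS5, of the same family, fell (-1.31 in S and -1.22 in U). ARO4, which uses erythrose 4-phosphate for aromatic amino acids, fell (-2.04 in S and -2.09 in U). SOL2, a paralog of SOL3, rose by 1.07 in S and 1.31 in U.

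SOL4, a paralog of SOL3 that also encodes a 6-phosphogluconolactonase, was singled out after its values were seen. It had 429 and 343 FPKM in S at 12 h, 467 and 309 FPKM in U at 12 h, 148 and 2.96 FPKM in S at 6 h, and 150 and 11.9 FPKM in U at 6 h. Replicate 1 at 6 h was 50.0 times replicate 2 in S and 12.6 times in U, and the general stress transcripts also split the 6 h replicates; their part in this difference was not tested. Its log2 difference of 12 h minus 6 h was 3.98 in S (limma adjusted p = 0.101) and 3.11 in U (adjusted p = 0.182) and was not called. In FPKM, SOL4 was above SOL3 in all 4 libraries at 12 h and below it in all 4 at 6 h.

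Of 8 other genes whose enzymes make NADPH or phosphorylate NAD, 5 were called higher and 1 lower at 12 h in S, and 6 higher and 1 lower in U, where 33.2% and 22.9% of all genes were called in S and 33.5% and 21.7% in U. The median log2 change was 1.71 in S and 1.66 in U. IDP2, the cytosolic NADP-dependent isocitrate dehydrogenase, had 2477 and 2947 FPKM in S at 12 h, 2850 and 3152 FPKM in U at 12 h, 7.13 and 5.89 FPKM in S at 6 h, and 5.61 and 5.25 FPKM in U at 6 h. It had the largest change of these 8 genes, 8.50 in S and 8.87 in U on the log2 scale. The peroxisomal enzyme of this family, IDP3, rose by 2.63 in S and 2.68 in U on the log2 scale, and YEF1, an NAD kinase, by 1.92 in S and 1.89 in U. ALD6, the cytosolic NADP-dependent aldehyde dehydrogenase, was called in U (3.54, limma adjusted p = 0.0385) and had 3.23 in S (adjusted p = 0.0505). The difference between the strains was not called. The 6 h libraries of ALD6 stood far apart, with 529 and 68.7 FPKM in S and 466 and 67.1 FPKM in U. The size of its change is therefore uncertain. MAE1, the mitochondrial malic enzyme, fell (-2.26 in S and -2.33 in U).

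Of 10 enzymes that use NADPH, 5 were called higher and 2 lower at 12 h in each strain, beside 33.2% and 22.9% of all genes in S and 33.5% and 21.7% in U. Their median log2 change was 1.38 in S and 1.17 in U. GDH3, the minor NADP-dependent glutamate dehydrogenase gene, rose by 4.21 in S and 4.44 in U. OYE3, an NADPH oxidoreductase, rose by 3.50 in S and 3.41 in U, GCY1, an aldo-keto reductase, by 3.16 in S and 3.24 in U, and TRR2, the mitochondrial thioredoxin reductase, by 1.85 in each strain. GDH1, the major glutamate dehydrogenase gene, was not called (-0.49 in S and -0.53 in U) and is named here after its values were seen. The 2 genes called lower were TRR1 (-1.61 in S and -1.54 in U) and OYE2 (-1.33 in S and -1.44 in U). They too are named after their values were seen.

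Of 11 regulators tied to the pathway or to the paralogs, 5 were called higher and 2 lower at 12 h in S, and 4 higher and 3 lower in U. These 7 of 11 called genes in each strain stand beside 56.1% of all genes in S and 55.3% in U, and the median log2 change was 0.45 in S and 0.36 in U. STB5, an activator known to induce pentose phosphate genes, rose by 1.38 in S (26.9 and 29.6 FPKM at 12 h, 13.3 and 7.83 FPKM at 6 h) and by 1.11 in U (23.9 and 26.6 FPKM at 12 h, 13.6 and 9.20 FPKM at 6 h). GIS1, which acts on post-diauxic genes, rose by 1.36 in S and 1.55 in U. TYE7, an activator of glycolytic genes, fell (-1.41 in S and -1.57 in U), and RAP1 fell (-0.88 in S and -0.80 in U). None of the genes in these lists was called between the strains.

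For each pair member, the genes with the most similar profile over the 8 libraries were sought. Likeness was measured as the root mean square distance between profiles of log2(FPKM + 1), each centred on its own mean. The search covered 5811 genes with a mean of at least 10 FPKM. It left out the 10 pathway genes, so likeness among those was not examined. The genes nearest to GND2 were SDH1 (0.224), SDH2 (0.226) and LEE1 (0.269). For TKL2 they were MOH1 (0.217), POT1 (0.226) and YHR033W (0.242), and for NQM1 they were PYC1 (0.257), YMR206W (0.275) and STL1 (0.275). The lists of the 3 minor genes had no gene in common. Each holds only the nearest 3 of 5811 genes, so the lack of overlap does not measure how unlike the minor genes are. The distance also depends on the size of the change, which differed between these genes. Whether they share regulation was not tested. For the major genes the distances were shorter, with RPL4A (0.0883), HAM1 (0.108) and CDC60 (0.112) for GND1, TLC1 (0.109), RPS28A (0.127) and GPM3 (0.128) for TKL1, and VMA3 (0.0862), SOP4 (0.0878) and STU2 (0.0891) for TAL1. These distances describe 8 libraries that share 2 times and 2 strains.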

How the data were processed

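The 8 libraries were polyadenylated RNA prepared with a stranded kit and sequenced paired-end, per the labels' protocols. The authors deposited FPKM per gene and library. The submitters' processing notes name bcl2fastq 1.8.2, FastQC 0.10.1, TopHat2 2.1.1, Cufflinks (no version given) and the build sacCer3. How reads shared by paralogs were split is not stated there. Read depth is unknown. Of the 7126 rows, 6048 were matched to the RefSeq R64 annotation by locus tag.

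The values were analysed as log2(FPKM + 1) after rows averaging under 1 FPKM were left out (6339 remained). One fit of limma 3.58.1 (R 4.3.3; lmFit, contrasts.fit and eBayes with trend) to the 4 groups shared 1 estimate of the spread, with 4 residual degrees of freedom and a prior of 2.33. All tests were two-sided, with Benjamini-Hochberg adjustment over all genes of a comparison and calls at an adjusted p under 0.05. Fold-change intervals are 95% intervals of this fit. Pair ratios were tested with exact permutation tests over libraries. The scripts were tested on simulated data. The alternatives were other pseudocounts, filters, scalings, a replicate block, no trend, fewer groups and libraries left out. The genes, lists and tests were chosen with earlier results of these data known. For each list and strain up to 4 genes were named, the called ones with the largest absolute change between the times first. Sequences, positions and motif counts come from RefSeq R64 and were computed with Python 3.11.15 and Biopython 1.88.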

Additional observations from a re-analysis of the deposited data

How the results depend on the processing

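Between the strains, 0 of the 10 genes were called in any comparison under any of the alternatives, and the lowest adjusted p of limma was 0.792. The sign of S minus U turned in 16 of 200 values at 12 h, in 16 of 200 at 6 h and in 23 of 190 for the difference of the changes. Between the times, 6 to 8 genes were called in S and 7 to 9 in U when 1 library was left out; 7 were called in each strain with median-of-ratios scaling or quantile normalization. Under these scalings the calls of all genes were 1696 and 1674 higher against 1781 and 1858 lower in S, and 1664 and 1656 higher against 1768 and 1865 lower in U, where the values as reported gave 2107 against 1450 in S and 2126 against 1377 in U. ZWF1 was also lost with quantile normalization (limma adjusted p = 0.0566 in S, 0.0602 in U), with only the groups compared (0.0636, 0.0517), without both 12 h libraries of replicate 2 (0.199, 0.191) and, in U, with no trend (0.0512). TAL1 in S was lost without both 12 h libraries of replicate 2 (limma adjusted p = 0.0539). Those libraries left out gave 1435 calls of all genes in S and 1422 in U, against 3557 and 3503.

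Sums over genes were recomputed under both scalings, an alternative added after seeing the data, and stand with the sums above. The log2 ratio of the pairs, 12 h minus 6 h, stayed between 7.28 and 7.64 for GND2 over GND1, 6.27 and 6.81 for TKL2 over TKL1, and 7.17 and 7.41 for NQM1 over TAL1 when 1 library was left out, with an exact adjusted permutation p of 0.0571, the smallest that 3 against 4 allows. Without both 6 h libraries of replicate 1, an alternative added after seeing the data, the ratios differed by 7.89, 6.43 and 7.43 (exact adjusted permutation p = 0.133, the smallest possible).

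The labels do not say that equal replicate numbers mark a shared culture, and only 2 numbers exist, so samples share only a number. Replicate deviations across genes correlated between S and U at 12 h (r = 0.375) and at 6 h (r = 0.642). Between the times r was 0.006 within S and 0.075 within U. It was 0.021 for S at 12 h with U at 6 h, and 0.085 for U at 12 h with S at 6 h. A block over both times treats equal numbers as matched between the times, where these correlations were low. With the replicate number as a block the pair differences were 7.45, 6.54 and 7.30 (exact adjusted permutation p = 0.0556, the smallest possible). With that block 9 genes were called in each strain, RKI1 being added (limma adjusted p = 0.0116 in S, 0.00565 in U). With a block within each time, added after seeing the data, 9 were called in S and 10 in U. The strain calls over all genes at 12 h, 8 as reported, were 2 with the block, 13 with the block within each time, 2 without both 6 h libraries of replicate 1, 0 when only those groups were fitted (103 at an unadjusted p under 0.05) and 1 to 15 with 1 library left out. For the difference of changes they were 2 to 13.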
